A study of Mus musculus with 15 samples.

Results

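The Bcl2 family genes described here are Bcl2, Bcl2l1, Bax, Bak1, Bcl2l11, Bbc3, Pmaip1, Bid, Bad and Bmf, chosen by name as survival and death genes of the mitochondrial pathway of apoptosis. A gene was measured where a probe set of the array maps to its symbol and to no other, which held for 9 of the 10 listed genes, among 19938 genes in all. Each of the 9 had 1 such probe set. Bax was not analysed here.

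The samples were green fluorescent cells sorted from kidneys of CD-1 pups that carry Tg(Crym-EGFP)82Gsat, a transgene in which Crym regulatory sequence drives the reporter. There were 15 samples, 3 a day from birth (P0) through postnatal day 4 (P4). Each was a pool of about 4 kidneys from pups raised by CD-1 foster mothers. The day of fostering is given as an embryonic day and is the same for all 15 samples. Up to P3 the label is cap mesenchyme (12 samples), that is, nephron progenitors around the ureteric bud tips, and at P4 it is renal vesicle (3 samples), an epithelium that arises from these progenitors, whereas the design text names cap mesenchyme throughout. All groups carry the transgene and none was treated, so age and labelled compartment cannot be told apart at P4. No label states that pools of one day stem from different litters, and the p-values therefore measure the spread between these samples.

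Proteins of the Bcl2 family decide whether the outer mitochondrial membrane stays intact. Survival members such as Bcl2 and Bcl-xL, the long product of Bcl2l1, hold the effectors Bax and Bak1 in check, while proteins with only a BH3 domain (Bim, Puma, Noxa, Bid, Bad and Bmf) bind the survival members or act on the effectors directly. In the developing kidney, loss of Bcl2 in mice leads to excess apoptosis of mesenchyme and small cystic kidneys, and loss of Bcl2l11, which encodes Bim, counteracts that phenotype.

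Bcl2 and Bcl2l11 are the genes whose levels moved, and the 250 bases before their annotated start sites are therefore shown, 5′ to 3′ on the strand of the gene, from RefSeq on GRCm38.p6. Capitals mark the GC box GGGCGG, which Sp1-type factors bind, and the FoxO core GTAAACA, each in either orientation (CCGCCC and TGTTTAC on the other strand). Bcl2 lies on the minus strand (chr1:106714291-106714540) and Bcl2l11 on the plus strand, with 2 annotated starts (chr2:128125788-128126037 and chr2:128127325-128127574).
Bcl2: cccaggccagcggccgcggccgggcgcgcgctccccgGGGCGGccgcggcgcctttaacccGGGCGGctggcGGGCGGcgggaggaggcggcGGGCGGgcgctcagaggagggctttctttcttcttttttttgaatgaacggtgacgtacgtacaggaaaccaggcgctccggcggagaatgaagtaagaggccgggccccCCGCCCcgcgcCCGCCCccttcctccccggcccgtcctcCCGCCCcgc
Bcl2l11, first start: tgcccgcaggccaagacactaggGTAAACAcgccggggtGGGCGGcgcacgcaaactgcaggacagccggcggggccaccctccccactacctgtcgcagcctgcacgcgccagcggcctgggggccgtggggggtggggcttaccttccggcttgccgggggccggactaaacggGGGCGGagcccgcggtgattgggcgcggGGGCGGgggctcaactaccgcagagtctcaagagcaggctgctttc
Bcl2l11, second start: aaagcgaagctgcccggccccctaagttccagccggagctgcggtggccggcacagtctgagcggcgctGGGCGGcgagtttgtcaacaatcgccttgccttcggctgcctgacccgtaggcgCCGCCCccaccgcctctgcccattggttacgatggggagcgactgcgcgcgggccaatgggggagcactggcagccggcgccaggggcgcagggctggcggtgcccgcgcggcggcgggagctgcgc

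The Bcl2 window held 7 GC boxes, and the Bcl2l11 windows held 3 and 2. Of the other members, the Bbc3 windows held 5, 1 and 7, the Bid window 3, the Bad windows 3 and 0 and the Bax window 2. The windows of Bmf, Bcl2l1 and Bak1 held none. A GC box was present in 32.7% of 32851 mouse promoter windows of the same length, with chromosome 18 left out. The GC content of the windows was 74.8% for Bcl2 and 72% and 73.2% for Bcl2l11, against a median of 52.4% over all windows. In the windows shown, the FoxO core occurred 1 time, in the first Bcl2l11 window, at position -227 counted from the start site. Among the other members it occurred in 1 Bbc3 window, at position -167. It was present in 3.17% of all windows. These matches describe the letters only.

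The deposited values are log2 hybridisation signals, on which a difference of 1 is a 2-fold change, and the level of one gene's probe set cannot be compared with that of another. Array medians ranged from 6.80 to 6.92. The first replicates of the 5 days had a narrower spread of values (interquartile range 2.14 to 2.27) than the other replicates (2.52 to 2.77), so results were also computed within replicates 2 and 3. Of the markers of the labelled compartments, 8 of 9 cap mesenchyme genes fell and 8 of 10 renal vesicle genes rose at P4 compared with the mean of P0 to P3. The mean log2 level of the cap mesenchyme list was 10.20, 10.08, 10.03, 9.16 and 7.97 from P0 to P4, and that of the renal vesicle list 7.42, 7.38, 7.92, 8.66 and 9.26. Crym, whose regulatory sequence drives the reporter used for sorting, is on the cap mesenchyme list. Its day means were 11.91, 11.57, 11.56, 10.43 and 7.80 (P4 difference -3.57, limma adjusted p = 3.9e-09). The part of this fall in the make-up of the sorted cells was not tested. In pools of sorted cells, fewer expressing cells and less RNA per cell cannot be told apart.

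Bcl2, the founding survival gene of the family, was level on the first 3 days and lower on the last 2. At P0 its log2 values were 9.93, 10.02 and 10.15, at P1 9.92, 10.08 and 9.96, and at P2 9.93, 10.00 and 10.07. At P3 they were 9.64, 9.41 and 9.11, and at P4 9.18, 9.39 and 9.31. All 6 samples of P3 and P4 lay below all 9 samples of P0 to P2. The highest of the 6 was 9.64 and the lowest of the 9 was 9.92, a split that was chosen after the values were seen and that 0.9% of the 11885 genes kept for testing share in this direction. The mean was 10.01 ± 0.08 (SD, n = 9) in the earlier and 9.34 ± 0.19 (SD, n = 6) in the later samples, a difference of -0.67.

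The day means of Bcl2 were 10.03 ± 0.11 at P0, 9.99 ± 0.08 at P1, 10.00 ± 0.07 at P2, 9.38 ± 0.26 at P3 and 9.29 ± 0.11 at P4 (SD, n = 3 each). Bcl2 differed among the 5 days (limma F test, adjusted p = 0.00243) and was the only 1 of the 6 members tested that was called, against 5.37% of all genes. At P4 it was 1.47-fold lower than the mean of P0 to P3 (log2 difference -0.56, SE 0.10, limma adjusted p = 0.00402). Of the 6 members 1 fell in that comparison, where 5.73% of genes passed and 2.32% fell. The 3 values at P4 lay within the range at P3, and P4 differed from P3 by -0.09 (SE 0.13, 95% confidence interval -0.38 to 0.19, limma adjusted p = 1), where 1.49% of genes and 0 of the 6 members passed (0 at an unadjusted p under 0.05).

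The step in Bcl2 fell between P2 and P3. The difference was -0.61 (SE 0.13, 1.53-fold), which did not pass without regard to replicate numbers (limma adjusted p = 0.108) and passed with the replicate number as a block (limma adjusted p = 0.0247). In this comparison 0.143% of genes passed without and 1.21% with the block. Each P3 sample lay below each P2 sample, as in 3.82% of genes. Within the first replicates, 1 sample a day, Bcl2 changed by -0.29, and within replicates 2 and 3 by -0.78 (limma adjusted p = 0.0429). Without the block, 1 of the 15 fits with a sample left out passed, that without P3 replicate 1 (adjusted p = 0.0271), and the highest adjusted p was 0.52 (without P2 replicate 3). From P0 to P1 and from P1 to P2 the differences of Bcl2 were -0.04 and 0.01 (SE 0.13 each), and neither passed. In limma 0 of the 6 members passed in either pair of days (0 and 1 at an unadjusted p under 0.05). Of all genes 0% passed from P0 to P1 (238 genes at an unadjusted p under 0.05) and 0.0841% from P1 to P2.

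**Figure D1:**
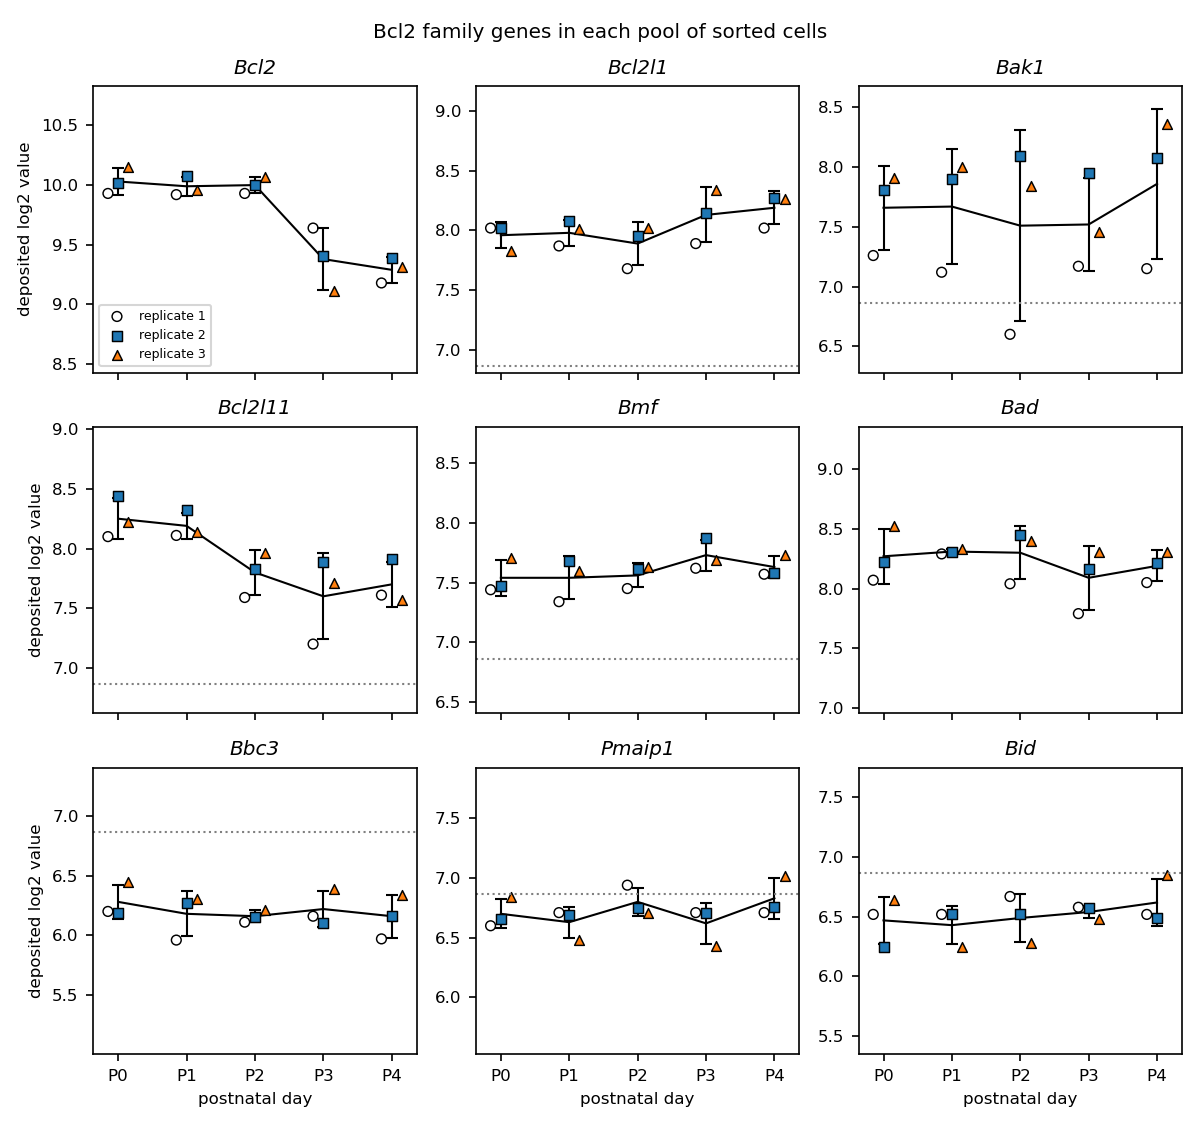
Deposited log2 value of the 9 measured Bcl2 family genes in each of the 15 samples, by postnatal day, with symbols for the replicate number, lines through the day means and bars for the SD (n = 3); every panel has the same height in log2 units and the dotted line marks the median of all values, 6.86. Bcl2 drops between P2 and P3, Bcl2l11 between P1 and P3, and the first replicates of Bak1, Bad and Bmf lie below the others on every day.

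Over P0 to P3, within the samples labelled cap mesenchyme, the fitted slope of Bcl2 was -0.19 per day on the log2 scale (SE 0.04, limma adjusted p = 0.0215). This slope averages over a stretch with day means between 9.99 and 10.03 and the drop to 9.38. Bcl2 and Bcl2l11 were the 2 members of 6 with a called slope, both downward, whereas 3.13% of genes had a called slope and 1.48% a downward one (8.49% and 4.48% with the replicate block). With the replicate block the slope of Bcl2 passed as well (limma adjusted p = 0.00663). In the fit without the block it no longer passed without P0 replicate 2 (adjusted p = 0.0564), P0 replicate 3 (0.0927), P3 replicate 2 (0.0519) or P3 replicate 3 (0.069).

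The cap mesenchyme markers moved with Bcl2 at P3. Their mean level went from 10.03 at P2 to 9.16 at P3, and log2 of their summed signal from 13.12 to 13.73 down to 12.63 to 12.76. Between P3 and P4 the marker mean went on to 7.97, while Bcl2 differed by -0.09. The part of the marker change in the fall of Bcl2 was not tested. The genes whose pattern over the 15 samples was most like that of Bcl2, after the mean of each replicate number was subtracted, were Cited1, a transcriptional co-regulator of the uncommitted progenitor (Pearson r = 0.977), Ramp2, a co-receptor for adrenomedullin (r = 0.968), and Fzd2, a Wnt receptor (r = 0.962). These correlations share arrays and days and are given as a description. Cited1 had day means of 9.72, 9.63, 9.33, 7.51 and 7.18 and was 2.54 lower at P4 than at P0, compared with 0.74 for Bcl2. The mean of Ramp2 was 1.22 lower and that of Fzd2 1.10 lower. Cited1 and Ramp2 passed in the F test (limma adjusted p = 0.00382 and 0.0252), whereas Fzd2 did not (0.0977), and none of the 3 genes passed from P2 to P3 in the fit without the block. Ramp2 is also an endothelial gene. The other 9 of 10 endothelial markers did not pass the filter on low values, and Pecam1 lay between 5.78 and 6.41.

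**Figure D2:**
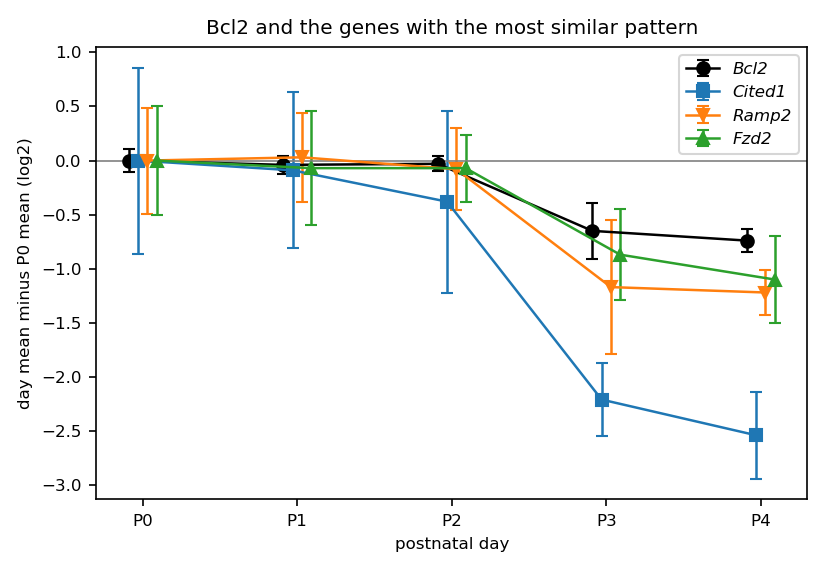
Day mean minus the P0 mean, in log2 units, for Bcl2 and the 3 genes with the most similar pattern, with bars for the SD of the day (n = 3). Each of the 4 genes lies within 0.38 of its P0 mean at P1 and P2 and is lower at P3 and P4, by 0.74 for Bcl2 and 2.54 for Cited1 at P4.

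Bcl2l1, which encodes Bcl-xL and, by alternative splicing, the shorter and death-promoting Bcl-xS, did not pass in any comparison. Its probe set does not separate the splice forms. The lowest value was 7.68 at P2 and the highest 8.34 at P3. The day means were 7.96, 7.98, 7.89, 8.13 and 8.19, so the highest were on the days on which Bcl2 was lowest. The samples of neighbouring days overlapped in each case. At P4 Bcl2l1 differed from the mean of P0 to P3 by 0.20 (95% confidence interval -0.04 to 0.44, limma adjusted p = 0.486). The value 8.02 occurred in 3 samples.

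Bak1, the measured effector, forms pores in the outer mitochondrial membrane once activated. Its values ranged from 6.60 to 8.36, the widest range among the members. On each of the 5 days the first replicate was the lowest, and the first replicates averaged 7.06 compared with 7.94 for the others. Differences between days were smaller than this gap, with day means of 7.66, 7.67, 7.51, 7.52 and 7.86. At P4 Bak1 differed from the mean of P0 to P3 by 0.27, with a 95% confidence interval from -0.39 to 0.94 (limma adjusted p = 0.864). Leaving out 1 sample moved this difference to between 0.03 (without P4 replicate 3) and 0.63 (without P4 replicate 1).

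Bcl2l11 encodes Bim, the BH3-only protein that binds every survival member and is induced when growth factor signals are withdrawn. Its log2 values were 8.10, 8.44 and 8.22 at P0, 8.11, 8.32 and 8.14 at P1, and 7.59, 7.83 and 7.96 at P2. At P3 they were 7.20, 7.89 and 7.71, and at P4 7.61, 7.91 and 7.57. All 9 samples of P2 to P4 lay below all 6 samples of P0 and P1. The highest of the 9 was 7.96 and the lowest of the 6 was 8.10, a split chosen after the values were seen and shared in this direction by 0.547% of genes. The later samples averaged 7.70 ± 0.24 (SD, n = 9) and the earlier ones 8.22 ± 0.13 (SD, n = 6).

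Within the samples labelled cap mesenchyme, Bcl2l11 fell by 0.23 per day on the log2 scale over P0 to P3 (SE 0.06, 1.18-fold per day, limma adjusted p = 0.0324). The slope was -0.32 per day in the first replicates and -0.19 in replicates 2 and 3, which alone did not pass (limma adjusted p = 0.0784). Over all samples with the replicate number as a block the slope passed (limma adjusted p = 0.00121). In the fit without the block it also did not pass without P0 replicate 2 (adjusted p = 0.127), P0 replicate 3 (0.0943), P1 replicate 2 (0.0589), P2 replicate 2 (0.0515), P3 replicate 1 (0.0973) or P3 replicate 3 (0.0599). The F test over the 5 days did not pass for Bcl2l11 (limma adjusted p = 0.092). No single step passed. The largest was from P1 to P2, with a difference of -0.39 (SE 0.18, unadjusted p = 0.0413, limma adjusted p = 1). The day means were 8.25 ± 0.17, 8.19 ± 0.11, 7.80 ± 0.19, 7.60 ± 0.36 and 7.70 ± 0.19 (SD, n = 3 each), and P4 differed from the mean of P0 to P3 by -0.26 (95% confidence interval -0.56 to 0.04, limma adjusted p = 0.444).

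Some stroma markers and 1 immediate-early gene also had a downward slope over P0 to P3 without the replicate block, as had 1.48% of all genes. With the block it was 4 of 9 stroma markers and 5 of 14 immediate-early genes, compared with 4.48% of all genes. Other lists had larger shares of called slopes. Of the cap mesenchyme markers 5 of 9 fell (7 with the block). Of the renal vesicle markers 6 of 10 rose, and of the G2/M genes, expressed in dividing cells, 6 of 13 (8 and 13 with the block). An upward slope was called in 1.65% of all genes (4.01% with the block). Of the 10 stroma markers 9 passed the filter and 3 fell without the block, among them Foxd1, which defines the stromal progenitor, with day means of 9.72, 9.76, 9.13, 8.32 and 8.49. Log2 of the summed stroma signal ranged from 11.61 to 11.73 at P0, 11.37 to 11.66 at P1, 11.08 to 11.32 at P2, 10.92 to 11.15 at P3 and 10.90 to 10.96 at P4. Of 14 immediate-early genes tested, 1 had a called slope without the block, Zfp36, which encodes an mRNA decay factor (-0.37 per day, limma adjusted p = 0.00936). With the block Fos (-0.37), Fosb (-0.43), Egr1 (-0.33) and Ier2 (-0.34) fell as well. The mean of the 15 measured immediate-early genes was 7.85 ± 0.31, 7.63 ± 0.34, 7.46 ± 0.21, 7.43 ± 0.13 and 7.69 ± 0.28 from P0 to P4 (SD, n = 3 each). The shift was about the spread within a day, which includes differences between replicate numbers. From P1 to P2, where the Bcl2l11 mean had its largest step, 0 genes of either list passed in limma, with or without the replicate block (2 stroma and 1 immediate-early gene at an unadjusted p under 0.05 without it). A count of 0 in lists this short cannot decide here, since 0.0841% of all genes passed without and 0.959% with the block. The median difference was -0.211 for the stroma and -0.092 for the immediate-early genes, compared with -0.016 over all genes. From P1 to P2, 10 of 13 G2/M genes and 3 of 10 renal vesicle markers rose with the block (1 and 0 without it). Their median differences were 0.727 and 0.513. The part of any of these lists in the fall of Bcl2l11 was not tested.

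**Figure D3:**
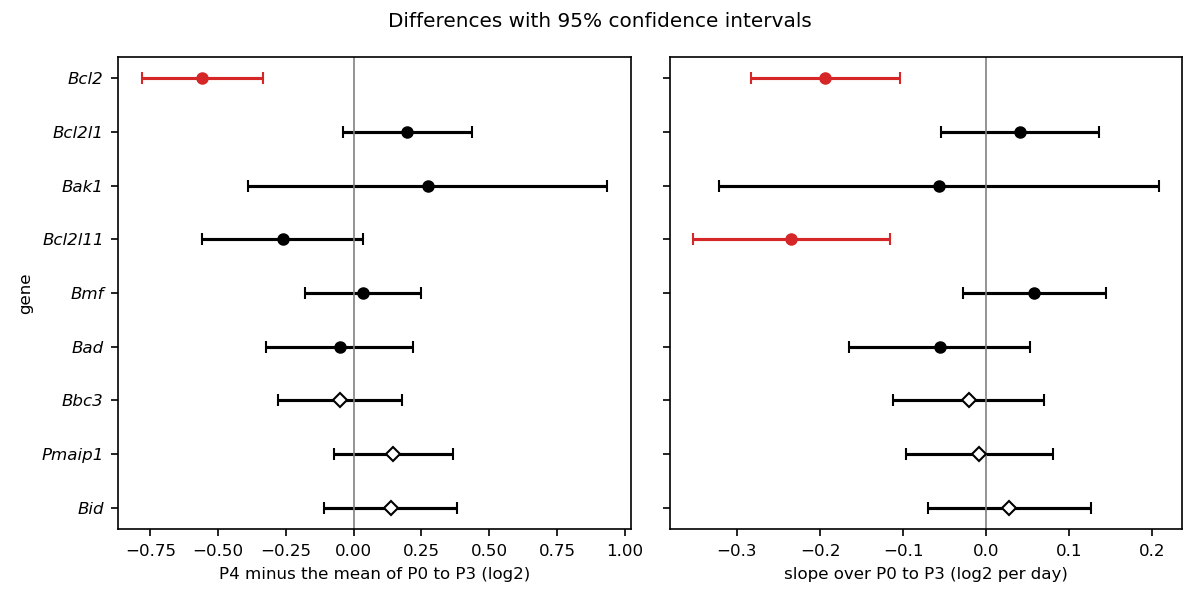
Log2 difference of P4 from the mean of P0 to P3 (left) and slope over P0 to P3 in log2 per day (right) with 95% confidence intervals from limma; filled circles are genes kept for testing, open diamonds genes below the filter on low values, fitted without it, and red marks an adjusted p under 0.05. Bcl2 is red in both panels (-0.56 and -0.19 per day), Bcl2l11 on the right, and the interval of Bak1 is the widest.

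The other BH3-only genes did not pass in any comparison. Bmf encodes a protein bound to the actomyosin cytoskeleton until cells detach or are stressed, and its values lay between 7.34 and 7.87. Its difference at P4 was 0.04 (95% confidence interval -0.18 to 0.25). Bad, whose protein is held inactive by survival kinases, lay between 7.79 and 8.52 and differed at P4 by -0.05 (-0.32 to 0.22). For Bmf and Bad the intervals reach at most 0.32 log2 units from 0. As with Bak1, the first replicate of both genes was the lowest on each of the 5 days. The first replicates averaged 7.48 for Bmf and 8.05 for Bad, and the others 7.66 and 8.32.

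Bbc3 (Puma), Pmaip1 (Noxa) and Bid were dim. Puma and Noxa are induced by Trp53, and Bid links death receptors to mitochondria once caspase-8 cleaves it. Bbc3 lay between 5.96 and 6.45, Bid between 6.25 and 6.85 and Pmaip1 between 6.43 and 7.02. Bbc3 and Bid were below the median of all values, 6.86, in all 15 samples and Pmaip1 in all but 2, so they did not enter the test. Fitted without the filter, they differed at P4 by -0.05 (95% confidence interval -0.28 to 0.18), 0.14 (-0.11 to 0.38) and 0.15 (-0.07 to 0.37) respectively. Exactly 1 value recurred in 4 samples for Pmaip1 (6.71) and for Bid (6.52), and 13.6% of all genes had a value repeated in 3 or more samples. How much of these low signals is background was not tested.

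Since a cell's response depends on survival and death members together, the changes of Bcl2l11, Bmf and Bak1 were set against those of Bcl2 and Bcl2l1 within the same array. Only the change from P0 carries meaning in such a difference, because the probe sets differ in brightness. Relative to Bcl2, Bmf was higher at P4 than at P0 by 0.82 (pooled SD of a day 0.16) and Bak1 by 0.94 (0.53). Neither Bmf nor Bak1 passed a test of its own level, and Bcl2 itself was 0.74 lower at P4 than at P0. Bcl2l11 minus Bcl2 changed from P0 by -0.02 at P1, -0.42 at P2, 0.00 at P3 and 0.18 at P4 (pooled SD of a day 0.28). At P2, where Bcl2 was still high, its 3 values (-2.34 to -2.11) lay below those at P0 (-1.92 to -1.58), and at P4 the change was smaller than its spread. Relative to Bcl2l1, Bcl2l11 changed from P0 to P4 by -0.78 (0.16), while Bmf and Bak1 changed by -0.14 (0.17) and -0.02 (0.47), less than their spread. Bcl2l11 minus Bcl2l1 changed by -0.09 at P1, -0.38 at P2, -0.82 at P3 and -0.78 at P4. These differences are descriptions without a test.

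**Figure D4:**
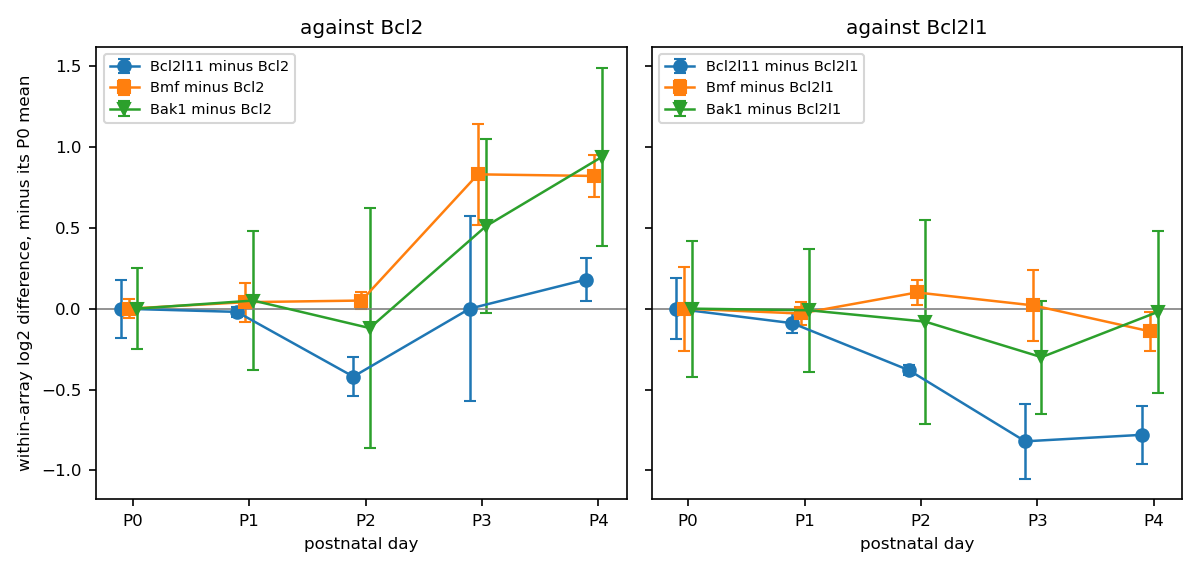
Within-array log2 difference of 3 death genes from Bcl2 (left) and from Bcl2l1 (right), shown as the change from its P0 mean, with bars for the SD of the day (n = 3). Against Bcl2, Bmf is 0.82 and Bak1 0.94 higher at P4 and Bcl2l11 dips by -0.42 at P2, and against Bcl2l1, Bcl2l11 is lower by -0.78 at P4.

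The rest of the pathway was read from lists of named genes at P4 against the mean of P0 to P3, with 5.73% of all genes passing. Of the other survival genes, Mcl1 (day means 9.19 to 9.32) and Bcl2l2 were tested and 0 passed in limma (1 at an unadjusted p under 0.05). Of 7 other death or atypical members 1 fell, Bnip3l, whose product Nix serves in mitophagy and hypoxia responses (-0.48, SE 0.09, 1.40-fold, limma adjusted p = 0.00275), with day means of 11.10, 10.99, 10.89, 10.87 and 10.48. Bnip3l had its lowest mean at P4, and its difference between P3 and P4 did not pass.

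Among other genes of the apoptosis pathways, 0 of 13 tested genes of the apoptosome, caspases and their inhibitors, 0 of 8 mitochondrial partners and 0 of 6 genes of the death receptor pathway passed at P4 in limma, with 1 gene of each list at an unadjusted p under 0.05. The median difference was 0.02, -0.06 and -0.02, compared with 0.00 over all genes. Trp53 was not analysed here.

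Among regulators of the BH3-only genes, 1 of 15 tested fell. It was Foxo3, a FoxO factor that activates Bcl2l11 in other cells, with day means of 8.49, 8.40, 8.33, 8.14 and 7.70 (P4 difference -0.64, SE 0.11, 1.56-fold, limma adjusted p = 0.00265). Foxo3 was lowest at P4, where with the replicate block it also fell from P3 (-0.44, limma adjusted p = 0.0253). Bcl2l11 differed from P3 to P4 by 0.097 (SE 0.175), which did not pass. The part of Foxo3 in the fall of Bcl2l11 was not tested. Of 14 tested Trp53 target genes, 1 fell, Plk2, a polo-like kinase (-0.85, SE 0.22, limma adjusted p = 0.0365), and 1 rose, Gadd45a, a stress-induced growth arrest gene (0.43, SE 0.12, limma adjusted p = 0.0456). Bbc3 and Pmaip1 are Trp53 targets as well and were too dim to be tested.

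Over P0 to P3, 1 gene of these pathway lists had a called slope, the Trp53 target Btg2, an antiproliferative gene and, like Fos, an immediate-early one, which fell by 0.52 per day (SE 0.11, limma adjusted p = 0.0197) and had day means of 9.23, 8.79, 8.14, 7.70 and 8.45. Its lowest day, P3, was also that of Bcl2l11, and a link between the 2 genes was not tested. Of the 65 genes tested in the 7 pathway lists this was 1 (1.54%), compared with 3.13% of all genes. With the replicate number as a block, 7 of the 65 (10.8%) had a called slope, compared with 8.49% of all genes, and 6 of them are named here after their values were seen. Bnip3, a hypoxia-induced relative of Bnip3l (-0.23 per day), Trp53inp1 (-0.18), Ddit3, a transcription factor of the unfolded protein response (-0.14), and Foxo3 (-0.11) fell. Birc5, which encodes the mitotic inhibitor of apoptosis survivin (0.18), and Casp8, the initiator caspase that cleaves Bid (0.21), rose. The list mean of G2/M genes, which are expressed in dividing cells as Birc5 is, was 9.37, 8.76, 9.50, 9.84 and 9.78 from P0 to P4.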

How the data were processed

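Total RNA of the sorted cells was amplified in 1 round, labelled with biotin and hybridised to 1-colour Affymetrix whole-transcript arrays. The authors deposited log2 values for 35557 probe sets in 15 samples. The labels name Affymetrix Expression Console as the tool, with version, summarization and background correction not given in the sources used here, and the log2 scale was read from the range of the values (2.38 to 13.76). Background left in dim probe sets would make their folds too small. No further normalization was applied.

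The platform annotation gave exactly 1 gene symbol for 21789 probe sets. The 1621 with several symbols and the 12147 without an entry were left out. Where a gene had more than 1 probe set (999 genes), that with the highest mean was used. The filter kept 11885 genes with a value above the overall median, 6.86, in at least 3 samples, including 6 of the 9 measured Bcl2 family genes. With limma 3.58.1 in R 4.3.3, a mean for each day was fitted to all 15 samples and moderated by eBayes. Two-sided p-values were adjusted over all 11885 genes (Benjamini-Hochberg, threshold 0.05). Only P4 versus the mean of P0 to P3 was tested on simulated data, with changes of 2-fold or more and noise independent between samples. The slope, the F test, neighbouring days and correlated replicates were not simulated. The comparisons were an F test over the 5 days, the slope per day over P0 to P3, P4 versus the mean of the earlier days and each pair of neighbouring days. A fold is the log2 difference converted to a ratio, without its sign.

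The members and gene lists were chosen with earlier results of these data known. Members were named in any case, together with up to 3 genes of each other list that had the smallest p among those past the threshold at P4 or in the F test, and the 3 genes most correlated with Bcl2. Btg2, Mcl1, Bcl2l2, Pecam1 and the genes called in the lists with the block only were singled out with their values known.

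Replicate numbers were read from the sample titles, and the first sample of each day, whose title has none, was taken as 1. To see whether numbers pair samples, residuals from the day means were correlated over genes between samples of the same number. Among P0 to P3, 18 of 18 pairs had a correlation over 0.1 (lowest 0.138), and between P3 and P4 3 of 3 (lowest 0.329). Over all 5 days it was 29 of 30 pairs (lowest 0.0782). The main fit did not use the numbers as pairs in any comparison. A fit with the replicate number as a block was an alternative and is named where its values are given.

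The alternatives were no filter, quantile normalization, the mean of a gene's probe sets, an intensity trend in eBayes, the replicate number or the first replicates against the others as a block, replicates 2 and 3 alone, and leaving out each sample in turn. Promoter windows came from RefSeq on GRCm38.p6. Windows on chromosome 18, where Pmaip1 lies, were not analysed here, which left entries for 9 of the 10 listed genes.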

Additional observations from a re-analysis of the deposited data

How the results depend on the processing

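Over 30 results on single members, 625 of 660 values at other settings kept their direction and their side of the threshold. Most of these results were not called in the main fit, so keeping their side mostly meant staying uncalled. Of the called slopes, that of Bcl2 was lost in 4 and that of Bcl2l11 in 6 of the 15 fits with a sample left out. The slope of Bcl2l11 was also lost within replicates 2 and 3 alone. Bcl2 passed in the F test and at P4 versus the mean of P0 to P3 under every alternative, with adjusted p up to 0.0102 and 0.0336 when single samples were left out. With the replicate block the calls that changed were Bcl2 from P2 to P3 and Bcl2l11 in the F test. For Bcl2l11 the limma adjusted p in the F test was 0.00305, compared with 0.092 in the main fit. It was 0.00492 with first replicates against the others as a block, here the array set block, and 0.0469 after quantile normalization. Over all 5 days, residuals correlated over 0.1 in 29 of 30 pairs of samples with the same number. The replicate block changed no other call of a member, while it narrowed the interval of Bak1 at P4 versus the mean of P0 to P3 to between -0.022 and 0.569 (adjusted p = 0.254). At P4 versus the mean of P0 to P3 it added 5 calls to the pathway lists, Birc2, Mtch2, Mdm4 and Ccng1 lower and Casp8 higher. With the block 9 of the 65 pathway genes (13.8%) were called there, close to the 12.1% of all genes.

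Genes called with the replicate block and the array set block numbered 1483 and 1386 in the F test, 1435 and 1363 at P4 versus the mean of P0 to P3, 1009 and 918 in the slope, 422 and 398 from P3 to P4, 20 and 19 from P0 to P1, 114 and 103 from P1 to P2, and 144 and 146 from P2 to P3. The count of members called became 2 in the F test (quantile normalization and both blocks), 1 in the slope (replicates 2 and 3 alone) and 1 from P2 to P3 (both blocks and replicates 2 and 3 alone). Quantile normalization gave 3 genes from P0 to P1, 46 from P1 to P2 and 43 from P2 to P3, and replicates 2 and 3 alone gave 1 from P1 to P2 and 83 from P2 to P3. The causes were not tested.

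With single samples left out, the genes called ranged from 462 to 653 in the F test (members 1 to 2), 417 to 770 at P4 versus the mean of P0 to P3 (members 1), 183 to 381 in the slope (members 0 to 2), 99 to 187 from P3 to P4 (members 0), 0 to 2 from P0 to P1 (members 0), 0 to 23 from P1 to P2 (members 0) and 1 to 55 from P2 to P3 (members 0 to 1).

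The sign turned only in small differences that never passed. Within replicates 2 and 3 alone these were Bmf at P4 versus the mean of P0 to P3 (-0.002) and Bcl2 (0.092) and Bcl2l11 (-0.06) from P3 to P4. With single samples left out, the log2 difference at P4 versus the mean of P0 to P3 ranged from -0.111 to 0.017 for Bad and -0.018 to 0.063 for Bmf. From P3 to P4 it ranged from -0.228 to 0.035 for Bcl2, -0.058 to 0.166 for Bcl2l1, -0.105 to 0.244 for Bcl2l11 and -0.044 to 0.216 for Bad. From P0 to P1 it ranged from -0.095 to 0.012 for Bcl2 and -0.141 to 0.029 for Bcl2l11, from P1 to P2 from -0.025 to 0.057 for Bcl2, and from P2 to P3 from -0.341 to 0.007 for Bcl2l11.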
